A study of Rattus norvegicus with 7 samples.

Results

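The subunits of oxidative phosphorylation were described in 7 RNA-seq libraries of rat oligodendrocyte progenitor cells that were differentiating in culture. Members were chosen by gene symbol, as genes of the mitochondrial DNA whose symbols begin with Mt-nd, Mt-co, Mt-atp or Mt-cyb, and as nuclear genes whose symbols name subunits of complex I (Nduf), complex II (Sdha to Sdhd), complex III (Uqcr), complex IV (Cox4 to Cox8) or ATP synthase (Atp5). The rule found 103 of the 32852 rows in the authors' deposited table, 13 mitochondrially encoded and 90 nuclear. The cells came from wild-type rats at postnatal day 7 and were transfected either with siRNLTR12-int, which targets the endogenous retroviral sequence RNLTR12-int (3 libraries), or with control siRNA (4 libraries). Both groups received the same lipid transfection reagent and stayed 4 to 5 days in differentiation medium. The labels call the libraries biological replicates but name no animal, culture or day, so p-values measure the spread between these samples and no more, and the level of RNLTR12-int was not analysed here.

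Oxidative phosphorylation passes electrons from NADH and succinate through complexes I to IV of the inner mitochondrial membrane to oxygen, and ATP synthase (complex V) uses the resulting proton gradient to make ATP. Complex II is built from nuclear genes alone, whereas the other complexes combine proteins encoded by mitochondrial DNA with proteins encoded in the nucleus and imported. Mitochondrial messages are cut from long polycistronic transcripts, and nuclear subunit genes are known targets of the factors NRF1, GABP and YY1. Differentiating oligodendrocytes have a high demand for ATP and lipid precursors while they build membrane.

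Recovered reads numbered 31609908 to 48187822 in siRNLTR12-int libraries and 22523873 to 61803693 in control libraries. All 9 oligodendrocyte markers had reads, with a summed normalised count (reads divided by the authors' size factor of the library) of 99279 to 113636 in siRNLTR12-int libraries and 199249 to 948304 in controls, and 4 of 5 progenitor markers were found, Pdgfra and Cspg4 among them. The libraries also held other glia, unequally. The 10 astrocyte markers summed to 640492, 135637 and 131899 in siRNLTR12-int replicates 1 to 3 and to 578993, 517694, 138370 and 153384 in control replicates 1 to 4, so siRNLTR12-int replicate 1 and control replicates 1 and 2 are called astrocyte-rich below. The 9 microglia markers found summed to 2293 to 15337 in siRNLTR12-int and 1487 to 12739.5 in control libraries, and the 8 neuron markers to 32345 to 41969 in siRNLTR12-int and 30279 to 41171 in control libraries. The 6 vascular and fibroblast markers found summed to 1414 to 3380 in siRNLTR12-int and 1416 to 3944 in control libraries. Of these, the endothelial marker Cldn5 was at 0 in all 7. The astrocyte-rich libraries were also highest in microglia markers, at 15337, 12739.5 and 4796 against at most 2334 in the others. In the vascular and fibroblast sum the astrocyte-rich libraries were highest too, at 3380, 3944 and 2977 against at most 1463, although Col1a1 was lowest in control replicate 2. The astrocyte-rich libraries thus differed in several cell types. They were lowest in Pdgfra (at most 16580, against 38097 or more) and in Cspg4, but not in Ptprz1 or Gpr17. The name astrocyte-rich therefore does not single out astrocytes. In such mixed cultures, fewer cells of a type and less RNA per cell cannot be told apart.

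Between the siRNA groups, transcripts of the respiratory chain lay close together, whichever genome encoded them. The 13 mitochondrially encoded messages had a median log2 difference of 0.03 (siRNLTR12-int minus control, on log2 of the normalised count plus 1), with a range of -0.08 to 0.14. The 80 nuclear rows that averaged 10 or more normalised counts had a median of 0.02, and all 18225 genes tested had a median of 0.01. Leaving out siRNLTR12-int replicate 1 gave medians of -0.04 for mitochondrial and -0.02 for nuclear members, and leaving out control replicate 3 gave -0.03 and -0.01, so neither median has a settled sign. No member passed the threshold of an adjusted p of 0.05 (limma, Benjamini-Hochberg over all genes tested), where 0% of all genes did. At an unadjusted p under 0.05 in limma, 1 member was higher and 1 lower, while 6.30% of all genes tested lay under it. edgeR on the recovered reads called 0 members and 0% of all genes, with 2 members under an unadjusted p of 0.05, against 6.33% of all genes. In the authors' deposited table (DESeq2), 0 of the 96 members with an adjusted p were called, against 0.752% of all genes, and the smallest adjusted p of a member was 0.487.

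A p that misses the threshold does not show that levels were alike, but the intervals bound the differences. In 89 of the 93 tested members the 95% interval of the log2 difference lay within 1 of 0 on both sides. The same held for 65.1% of all genes tested. Within 0.5 of 0 lay 68 of the 93 members and 31.6% of all genes tested. Among genes with a mean of at least 1000, nearer the level of most members, 54 of 64 members lay within 0.5, against 53.3% of all genes at that level. By genome, 8 of 13 mitochondrial messages and 60 of 80 nuclear rows lay within 0.5. None of the 3 mitochondrial messages of complex IV did, so the narrower bound holds less well for the mitochondrial messages. Among the controls, nuclear members with a mean of at least 100 had a median standard deviation of 0.12 on the log2 scale (74 rows). It was 0.15 for the 13 mitochondrial messages and 0.22 for all 13754 genes at that level. The 4 members whose intervals were wider were Ndufa4l2, Cox4i2, Cox6a2 and Cox8b, all weakly expressed forms of complex IV subunits.

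**Figure D1:**
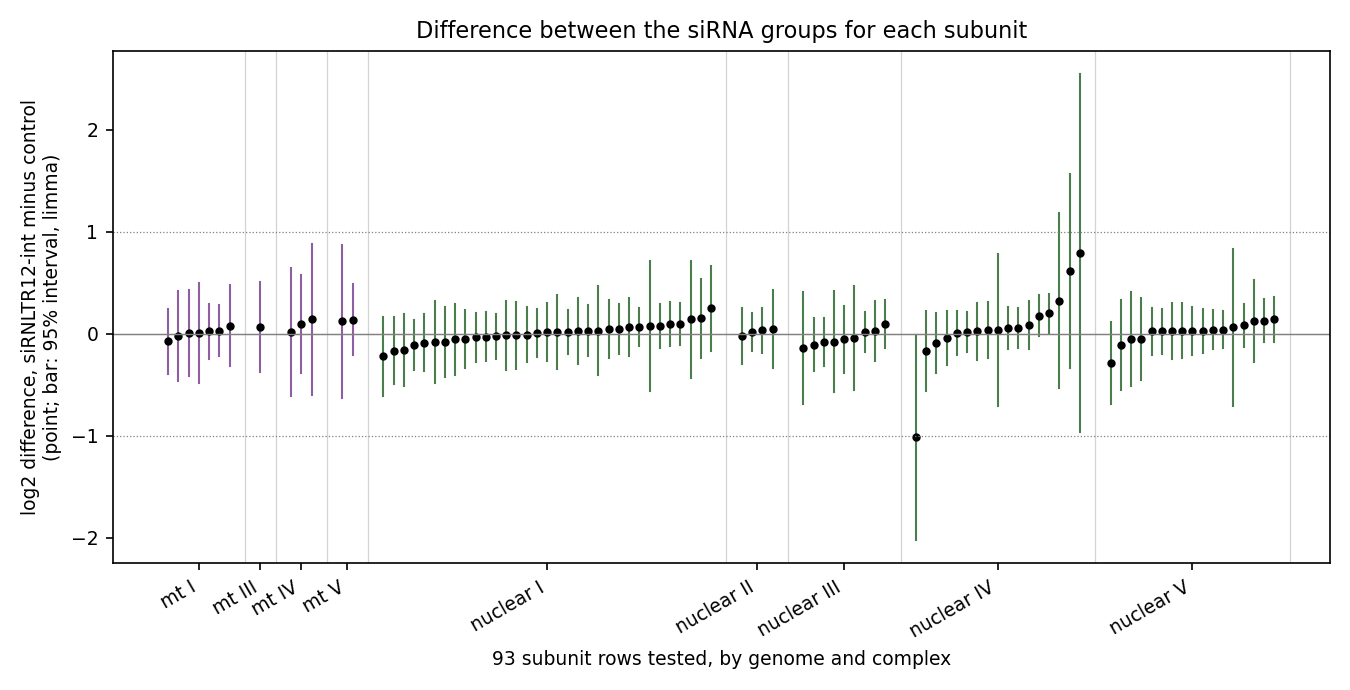
Log2 difference (siRNLTR12-int minus control; point) with its 95% interval from limma (bar) for the 93 tested members, grouped by genome and complex; dotted lines mark a difference of 1 either way. The points of both genomes sit near 0, and Ndufa4l2, at -1.02, lies farthest below.

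Mitochondrially encoded transcripts took a large part of every library. The 13 genes held 9.79%, 8.30% and 8.03% of the recovered reads in siRNLTR12-int replicates 1 to 3 and 9.54%, 7.70%, 7.55% and 7.82% in control replicates 1 to 4. The 90 nuclear rows together held 0.438% to 0.464% in siRNLTR12-int and 0.419% to 0.440% in control libraries. Wilson 95% intervals of these shares reached at most 0.0111 percentage points either side, which covers counting error only. Group means of the mitochondrial share were 8.70 ± 0.948% (SD, n = 3) in siRNLTR12-int and 8.15 ± 0.932% (SD, n = 4) in control libraries, a gap smaller than either SD. The highest shares were in siRNLTR12-int replicate 1 and control replicate 1, both astrocyte-rich, whereas the astrocyte-rich control replicate 2 was among the low ones.

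By complex, the mitochondrial messages differed little between the siRNA groups. The 7 complex I messages, which encode the proton-pumping membrane arm, had a median log2 difference of 0.01, and Mt-cyb, the cytochrome b of complex III, differed by 0.07. The 3 complex IV messages had a median of 0.09 and the 2 ATP synthase messages a median of 0.13. The nuclear medians of the same complexes were 0.02 for complex I (33 rows), -0.05 for complex III (9 rows), 0.04 for complex IV (17 rows) and 0.03 for ATP synthase (17 rows). Complex II, with 4 nuclear genes, had 0.02. The mean log2 level of the mitochondrial messages stood above that of the nuclear members by 6.87 ± 0.07 (SD, n = 3) in siRNLTR12-int and 6.84 ± 0.12 (SD, n = 4) in control libraries, on counts not corrected for length, so the balance between the genomes shifted by less than either SD.

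In 12 of the 13 mitochondrial messages, the gap between the group means was smaller than the larger of the group SDs, Mt-atp6 being the exception. Mt-co1, the catalytic core of complex IV, had normalised counts of 1402699.6, 998767 and 942200.0 in siRNLTR12-int replicates 1 to 3 and 1271905, 1093544, 825501 and 855125 in control replicates 1 to 4. Mt-co2, which receives electrons from cytochrome c, had 360955, 239035 and 231790.2 in siRNLTR12-int and 328539, 320149, 210706 and 235866 in control libraries. In both genes the astrocyte-rich libraries were the 3 highest of the 7. The log2 differences were 0.14 for Mt-co1 (95% interval -0.60 to 0.88) and 0.01 for Mt-co2 (-0.61 to 0.64), with limma adjusted p of 0.990 and 0.999. Without siRNLTR12-int replicate 1 the differences were -0.04 and -0.19, and in 9 of the 13 messages leaving out 1 library could turn the sign.

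Mt-cox3, the remaining core subunit of complex IV, had 450117, 396152 and 369717 in siRNLTR12-int and 424759.6, 399246, 337223 and 360064 in control libraries. Mt-cyb had 398114, 374799 and 352267 in siRNLTR12-int and 378544, 361758, 322477 and 368553 in control libraries. The groups overlapped in both, and for Mt-cox3 the astrocyte-rich libraries were again the highest. Of the complex I messages, Mt-nd2 and Mt-nd4 followed the same order, with Mt-nd4 at 355118, 285151 and 267423 in siRNLTR12-int and 345318, 305546, 253328 and 296188 in control libraries. Mt-nd1 did not, with 279542, 287527 and 266021 in siRNLTR12-int and 271071, 248606, 251202 and 281496 in control libraries. Mt-nd3 (log2 difference 0.03), Mt-nd4l (0.03) and Mt-nd5 (0.01) also had overlapping groups. So did Mt-nd6, the complex I message on the other strand from the rest, with 22438, 18339 and 19361 in siRNLTR12-int and 24968, 20309, 18512 and 20935 in control libraries (-0.08).

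**Figure D2:**
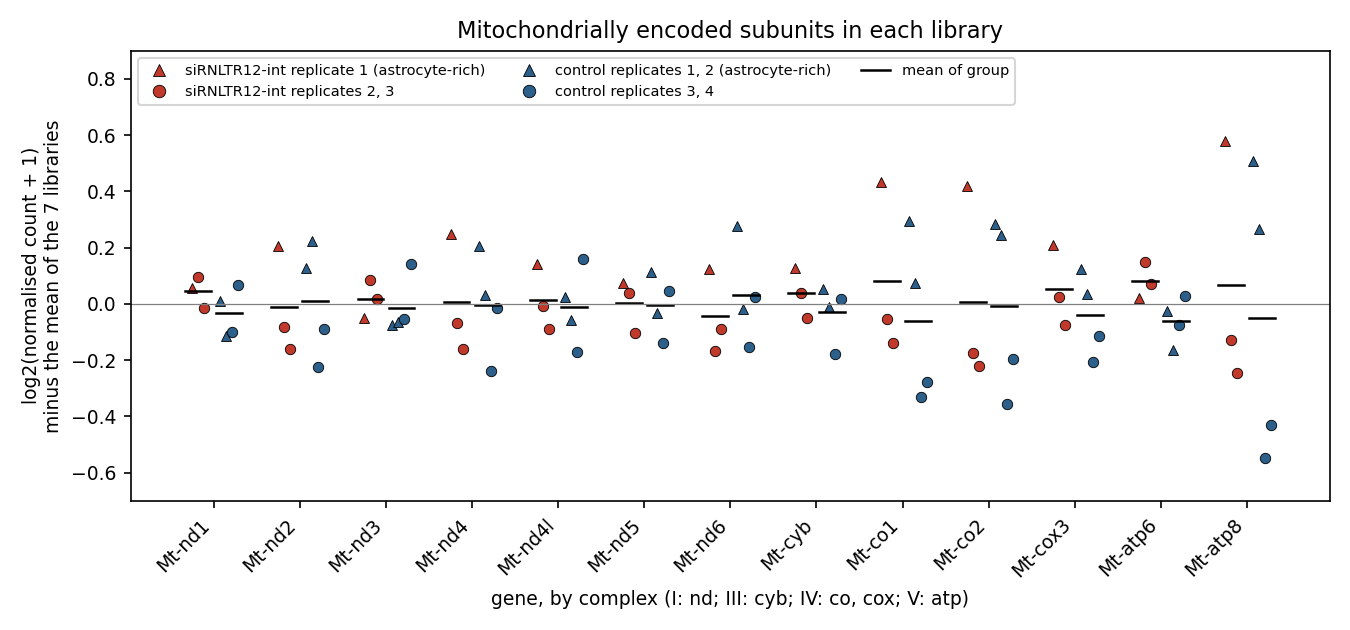
Each mitochondrially encoded subunit in each library, as log2(normalised count + 1) minus the gene's mean over the 7 libraries; red points are siRNLTR12-int, blue points control, triangles the astrocyte-rich libraries and bars group means. The groups overlap in all 13 genes, and the triangles stand above the circles in Mt-nd2, Mt-nd4, Mt-co1, Mt-co2, Mt-cox3 and Mt-atp8.

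Mt-atp8 and Mt-atp6, neighbours that overlap and are read from a shared message for ATP synthase, moved apart between libraries. Mt-atp8 had 24779, 15154 and 13989 in siRNLTR12-int and 23546, 19923, 11335 and 12299 in control libraries. Mt-atp6 had 179689, 196010.0 and 185633 in siRNLTR12-int and 173698, 157842, 167993 and 180291 in control libraries, where only control replicate 4 reached the range of the siRNLTR12-int libraries (log2 0.14, 95% interval -0.21 to 0.49). Of the reads given to the pair, Mt-atp8 took 12.1%, 7.18% and 7.01% in siRNLTR12-int replicates 1 to 3 and 11.9%, 11.2%, 6.32% and 6.39% in control replicates 1 to 4, each with a Wilson 95% interval of at most 0.145 percentage points either side. All 3 astrocyte-rich libraries were at 11.2% or more and the other 4 at 7.18% or less, whichever siRNA was used. The processing notes name Salmon, but the sources used here do not say how reads from the overlap were divided. The split between these genes is therefore uncertain, and the Wilson intervals do not cover that uncertainty. The other overlapping pair went the opposite way, since Mt-nd4l took 4.17%, 4.66% and 4.69% of the Mt-nd4l and Mt-nd4 reads in siRNLTR12-int and 3.96%, 4.22%, 4.69% and 5.02% in control libraries, with the astrocyte-rich libraries lowest. In the 4 libraries that were not astrocyte-rich, Mt-atp8 differed by 0.30 on the log2 scale (limma adjusted p = 0.0716) and Mt-atp6 by 0.13.

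**Figure D3:**
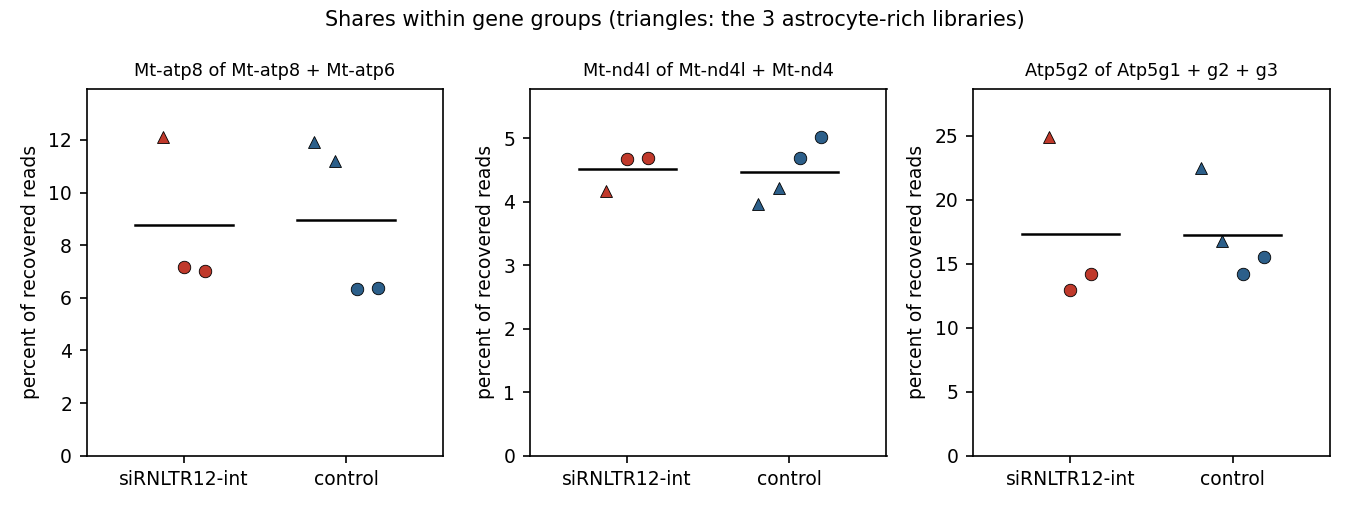
Percent of recovered reads taken by Mt-atp8 of the Mt-atp8 and Mt-atp6 pair, by Mt-nd4l of the Mt-nd4l and Mt-nd4 pair, and by Atp5g2 of the 3 genes for the c ring of ATP synthase, per library; triangles are the astrocyte-rich libraries and bars group means. Mt-atp8 takes 11.2% to 12.1% in the triangles and 6.32% to 7.18% in the circles, in both siRNA groups.

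Promoters of the nuclear members shared letters that the choice by name did not use. RefSeq promoters (build GRCr8, 250 bases before to 50 after the annotated start) matched 75 of 87 nuclear symbols by symbol or synonym. The NRF1 motif, GCGCA and then, after any base, GCGC, was found in 14 of these 75 windows (18.7%), against 4.25% of all 33469 promoters in the table. The GABP motif CCGGAAG was in 20 (26.7%), against 8.75%, and the YY1 motif AANATGGC was in 30 (40.0%), against 6.96%. Both strands were searched, and 49 of the 75 (65.3%) held at least 1 of the 3 motifs, against 17.7% of all promoters. These are counts of letters, not of bound sites, and the set of all promoters was not limited to genes expressed in these libraries. To show the motifs, the 250 bases before the start are printed for a subunit of each complex, chosen for its motifs, and for Ndufa4, the member with the smallest p, in which no motif was found in the window. Capitals mark the motifs that end before the start. In Ndufa11 a pair of NRF1 matches overlap.
Ndufa11 (chr9:1637364-1637613, plus strand): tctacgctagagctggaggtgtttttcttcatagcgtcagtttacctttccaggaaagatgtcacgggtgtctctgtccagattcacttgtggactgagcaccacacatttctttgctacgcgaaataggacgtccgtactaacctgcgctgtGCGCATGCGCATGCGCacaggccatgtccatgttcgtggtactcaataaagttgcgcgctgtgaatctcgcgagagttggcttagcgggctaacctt
Sdha (chr1:30764303-30764552, plus strand): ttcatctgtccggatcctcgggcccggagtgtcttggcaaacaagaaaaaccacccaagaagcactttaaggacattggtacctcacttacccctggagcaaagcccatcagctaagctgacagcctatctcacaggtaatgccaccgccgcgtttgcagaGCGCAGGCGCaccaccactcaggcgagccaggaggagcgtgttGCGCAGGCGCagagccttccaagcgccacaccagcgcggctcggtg
Uqcrc2 (chr1:184598990-184599239, plus strand): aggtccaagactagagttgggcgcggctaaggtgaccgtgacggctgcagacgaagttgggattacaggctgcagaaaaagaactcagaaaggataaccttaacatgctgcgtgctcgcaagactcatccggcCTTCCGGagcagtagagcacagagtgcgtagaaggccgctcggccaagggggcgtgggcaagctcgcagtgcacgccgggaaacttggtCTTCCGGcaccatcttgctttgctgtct
Cox8a (chr1:213833624-213833873, minus strand): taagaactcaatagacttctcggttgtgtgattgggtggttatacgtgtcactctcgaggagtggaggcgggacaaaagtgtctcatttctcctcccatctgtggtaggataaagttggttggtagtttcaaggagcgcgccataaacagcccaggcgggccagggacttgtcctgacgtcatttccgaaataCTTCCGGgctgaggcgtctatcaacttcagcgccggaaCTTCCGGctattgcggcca
Atp5j (chr11:37375102-37375351, minus strand): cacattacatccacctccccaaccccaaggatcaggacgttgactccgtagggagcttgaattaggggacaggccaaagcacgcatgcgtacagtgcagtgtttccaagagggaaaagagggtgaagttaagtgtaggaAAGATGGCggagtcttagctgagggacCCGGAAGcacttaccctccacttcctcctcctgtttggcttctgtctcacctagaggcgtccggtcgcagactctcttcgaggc
Ndufa4 (chr4:40975560-40975809, minus strand): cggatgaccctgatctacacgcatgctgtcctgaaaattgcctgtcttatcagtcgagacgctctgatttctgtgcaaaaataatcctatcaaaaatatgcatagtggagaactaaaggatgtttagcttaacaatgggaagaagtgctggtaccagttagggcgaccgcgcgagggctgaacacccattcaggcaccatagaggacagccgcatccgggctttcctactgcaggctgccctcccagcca

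Nuclear complex I, the entry point for electrons from NADH, had 38 rows, of which 33 were tested, 18 with a positive and 15 with a negative log2 difference (-0.22 to 0.25). Ndufs1, a core iron-sulfur subunit, had 5179.9, 3962 and 3905 normalised counts in siRNLTR12-int and 4929.7, 5056, 3919 and 4103 in control libraries. It was higher in the astrocyte-rich libraries than in the rest, as were Ndufv1, Ndufa11, Ndufb4 and 5 other complex I rows. Ndufb11, an accessory subunit, ran the opposite way, with 2713, 3842 and 3569 in siRNLTR12-int and 2532, 2801, 3293 and 3509 in control libraries. Ndufb7, another accessory subunit, had 166.3, 124.1 and 123.3 in siRNLTR12-int and 115.8, 122.6, 112.0 and 108.2 in control libraries. These groups did not overlap, but by a narrow margin (log2 0.25, limma adjusted p = 0.918, and log2 0.11 without siRNLTR12-int replicate 1). Ndufb3 (-0.22) and Ndufa1 (-0.17), both accessory subunits, had overlapping groups.

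Complexes II and III were as even. Sdha, the flavoprotein that oxidises succinate, had 4742, 3512 and 3552 in siRNLTR12-int and 4343, 4290.0, 3335 and 3268 in control libraries, with the astrocyte-rich libraries highest, and Sdhb, its iron-sulfur partner, differed by 0.02 (95% interval -0.17 to 0.21). Of the 9 complex III rows, 3 were positive and 6 negative (-0.14 to 0.09). Uqcr11, a small subunit, had 1828, 1038 and 1139 in siRNLTR12-int and 1646, 1684, 1156 and 1289.7 in control libraries, again highest in the astrocyte-rich libraries. Uqcrb, the ubiquinone-binding protein (ENSRNOG00000024967), was the only tested row with every siRNLTR12-int library below every control, by a narrow margin. It had 395, 384 and 399 against 400.0, 408, 459 and 426 in controls (log2 -0.11, limma adjusted p = 0.968). Of all genes tested, 3.59% were placed so. A second tested row of Uqcrb overlapped, at 74.9, 78.5 and 62.9 in siRNLTR12-int and 89.0, 82.0, 60.3 and 67.4 in control libraries (log2 -0.04).

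Complex IV, which passes electrons to oxygen, held the members with the smallest p. Ndufa4, first assigned to complex I and now regarded as a complex IV subunit, had 3269.6, 3176 and 3211 in siRNLTR12-int and 2617, 2947, 2788 and 2859.7 in control libraries. Every siRNLTR12-int library was above every control, by 0.20 on the log2 scale (95% interval 0.01 to 0.39, limma adjusted p = 0.779). Without any 1 of 6 libraries, control replicate 2 being the exception, no member was higher at an unadjusted p under 0.05 (limma). The difference of Ndufa4 was 0.18 in the 4 libraries that were not astrocyte-rich (limma adjusted p = 0.184). Cox5a, which binds the core of complex IV, had 2050.0, 1957 and 1868 in siRNLTR12-int and 1720.4, 1809, 1634 and 1763 in control libraries (log2 0.18, limma adjusted p = 0.835), also without overlap. With Ndufb7 and Atp5l, these made 4 of 93 members with every siRNLTR12-int library above every control, against 4.09% of all genes tested.

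Ndufa4l2, a paralogue of Ndufa4 known to be induced by low oxygen, was weakly expressed. It had 10.96, 20.3 and 12.1 normalised counts in siRNLTR12-int and 20.1, 48.6, 19.8 and 37.3 in control libraries, from 12 to 16 reads per siRNLTR12-int library and 21 to 67 per control. The groups overlapped by a small margin (log2 -1.02, 95% interval -2.02 to -0.01, limma adjusted p = 0.784). In the authors' deposited table it differed by -1.14 (DESeq2 adjusted p = 0.552). Its share of the Ndufa4l2 and Ndufa4 reads was 0.334%, 0.634% and 0.375% in siRNLTR12-int and 0.762%, 1.62%, 0.706% and 1.29% in control libraries, with Wilson 95% intervals of up to 0.558 percentage points either side, so neighbouring values are within counting error. Without control replicate 2, control replicate 4 or siRNLTR12-int replicate 3 no member was lower at an unadjusted p under 0.05.

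**Figure D4:**
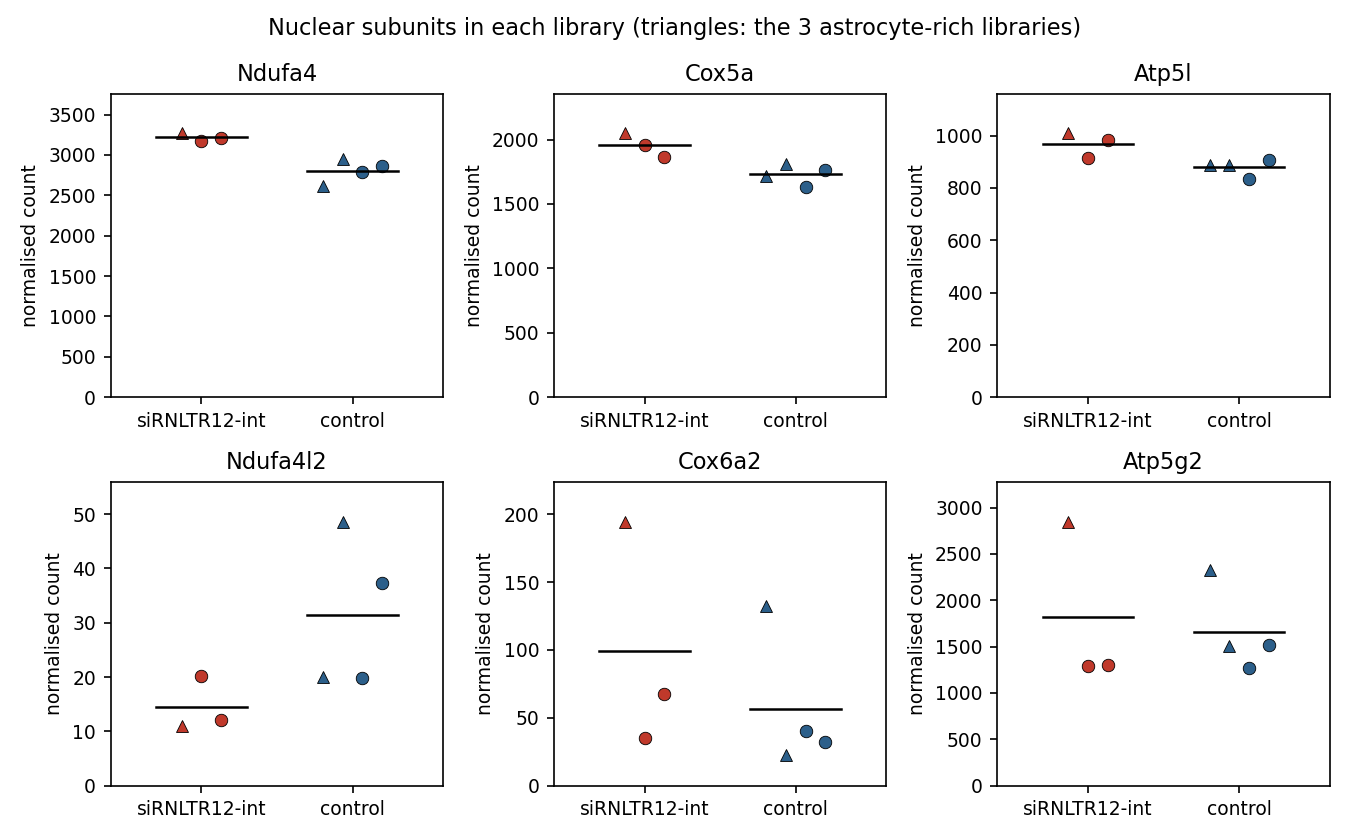
Normalised counts of 6 nuclear members per library, siRNLTR12-int left and control right; triangles are the astrocyte-rich libraries and bars group means. Ndufa4, Cox5a and Atp5l are higher in all 3 siRNLTR12-int libraries than in the 4 controls, while Cox6a2 and Atp5g2 are highest in siRNLTR12-int replicate 1 and control replicate 1.

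Complex IV subunits with tissue-specific forms were read mostly from the widely expressed form. Cox4i2, the form known from lung and from low oxygen, took 1.33% to 2.55% of the Cox4i2 and Cox4i1 reads in siRNLTR12-int and 0.983% to 2.30% in control libraries. Cox6a2, the heart and skeletal muscle form, had 195, 35.4 and 67.7 normalised counts in siRNLTR12-int and 132, 22.5, 40.5 and 31.9 in control libraries. Its share of the Cox6a2 and Cox6a1 reads was highest in siRNLTR12-int replicate 1 (6.99%) and control replicate 1 (5.36%), the libraries richest in astrocyte and microglia markers, and 0.943% to 2.71% elsewhere. Cox8b, another muscle form, had 32.9, 20.3 and 21.8 in siRNLTR12-int and 22.0, 8.71, 21.5 and 14.2 in control libraries. Cox6b2, a testis form, took 5.88% to 11.7% of its pair in siRNLTR12-int and 5.33% to 11.3% in control libraries. The groups overlapped in each of these forms, and shares are of reads, not corrected for length. The part of astrocyte and microglia RNA in them was not tested.

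ATP synthase had 17 rows, all tested, with 13 positive and 4 negative log2 differences (-0.28 to 0.14). Atp5b, the catalytic beta subunit, had 21841, 21224 and 20879.7 in siRNLTR12-int and 19442, 21062, 19396 and 20706 in control libraries, a log2 difference of 0.08 (95% interval -0.13 to 0.29). Atp5l, subunit g of the membrane part, had 1009, 915 and 982 in siRNLTR12-int and 887, 888, 834 and 907 in control libraries (log2 0.14, limma adjusted p = 0.907). The c ring, through which protons pass, is made from 3 genes for the same mature protein. Atp5g2 took 24.9%, 12.96% and 14.2% of their reads in siRNLTR12-int and 22.5%, 16.7%, 14.2% and 15.5% in control libraries, highest in the astrocyte-rich libraries. Atp5g2 itself differed by 0.06 on the log2 scale, and by -0.31 without siRNLTR12-int replicate 1. Atp5g3 (log2 0.13) and Atp5g1 (0.03) took the rest. Atp5s (-0.28) and Atp5sl (-0.05), matched by name, are now regarded as a coupling factor and an assembly factor and not as subunits.

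A further 10 rows fell under the minimum mean and were not tested. Ndufs6 was listed at 0 in all 7 libraries, and Ndufa13 had 0 to 2 reads per library, although both encode subunits of complex I in every cell. Cox7b2, Cox8c and Cox7a1, tissue-specific forms of complex IV subunits, had at most 1, 17 and 34 reads in a library. The others were Ndufa10l1, Ndufb4l1, Cox6c-ps1 and second rows of Ndufv3 and Cox6b1. Reads of near-identical copies could have been counted elsewhere, so values of these rows are uncertain.

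The order of the libraries was also set against their glial markers. In 26 of the 93 tested members, 6 mitochondrial and 20 nuclear, all 3 astrocyte-rich libraries were above the other 4, against 18.6% of all genes tested. In 2, Ndufb11 and Ndufa7, they were below, against 17.1%. These are descriptions, since the libraries were told apart by their own markers. In a limma fit of the 4 libraries that were not astrocyte-rich, 0 of the 93 members passed, whereas 7.88% of all genes tested did, and the medians were 0.06 for mitochondrial and 0.01 for nuclear members. Over the 7 libraries, the genes outside the members whose levels were most like the mean mitochondrial level were Mknk1 (Pearson r = 0.992), Lactb2 (0.986) and Mtmr14 (0.981), out of 12142 genes with a mean of at least 100. Those most like the mean nuclear level were Got2 (0.978), the mitochondrial aspartate aminotransferase, and Creb3l4 (0.977). All these levels share the same 7 libraries and size factors.

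Genes that assemble, regulate or feed the chain were described from 9 lists with 143 tested rows. None passed in limma or in the authors' deposited table (DESeq2), and at an unadjusted p under 0.05 in limma 7 were higher and 2 lower, where 3.33% and 2.98% of all genes tested were. Among assembly factors, Cox10, which makes heme for complex IV, had 1254 ± 67.3 normalised counts (SD, n = 3) in siRNLTR12-int and 1075 ± 51.7 (SD, n = 4) in control libraries, while Tmem70, an ATP synthase assembly factor, had 537 ± 85.7 (SD, n = 3) and 696 ± 66.3 (SD, n = 4). Coa7 (log2 0.24), Ndufaf6 (0.34), Ndufaf4 (0.30) and Sdhaf3 (0.42) did not pass either. The complex I factors had 8 positive of 14 rows, the complex IV factors 13 of 22, and those of complexes II, III and V 8 of 14.

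Of the regulators of mitochondrial biogenesis 8 of 10 were positive, with a median log2 difference of 0.13. Pprc1 and Esrra, a coactivator and a nuclear receptor of respiratory genes, differed by 0.43 and 0.23 (limma adjusted p = 0.841 for both). Ppargc1a, the coactivator PGC-1alpha, named after its values were seen, had 2303, 1610.2 and 1466 normalised counts in siRNLTR12-int and 1737, 1359, 1155 and 910.1 in control libraries. It did not pass in all 7 libraries (log2 0.49, limma adjusted p = 0.855), and did in the 4 that were not astrocyte-rich (0.58, limma adjusted p = 0.0414), where 4.78% of all genes tested were called higher. Genes of mitochondrial DNA maintenance and transcription had a median of 0.05 (Mterf4 0.25, Polg 0.31), and those of mitochondrial RNA processing 0.12. Among these Fastk, of a family that acts on mitochondrial RNA, had 3791 ± 81.0 (SD, n = 3) in siRNLTR12-int and 3245 ± 99.1 (SD, n = 4) in control libraries, without overlap (limma adjusted p = 0.712), and Ptcd2 differed by 0.34.

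Enzymes and carriers that supply the chain were set against all genes tested, of which 51% had a positive log2 difference. In the tricarboxylic acid cycle list 12 of 16 rows were positive (median 0.10), with Idh2 at 0.38 and Fh at 0.26 (limma adjusted p = 0.712 and 0.778). These rows include the pyruvate dehydrogenase genes Pdha1 (0.22), Dlat (0.14) and Pdhb (0.11), which are not enzymes of the cycle itself. Electron carriers, shuttles and nucleotide carriers had 7 positive and 6 negative rows (median 0.07). Gpd2 of that list, the mitochondrial glycerol-3-phosphate dehydrogenase, had 4069, 3426 and 3069 in siRNLTR12-int and 3089, 2341, 2367 and 1731 in control libraries (log2 0.58, limma adjusted p = 0.712). In the 4 libraries that were not astrocyte-rich the difference of Gpd2 was 0.68 (limma adjusted p = 0.0399). In that fit 2 of the 143 rows of the 9 lists, Ppargc1a and Gpd2, were called higher and 0 lower. Of all genes tested, 4.78% were called higher and 3.10% lower. Slc25a3, the phosphate carrier, differed by 0.20 without overlap (limma adjusted p = 0.784). In glycolysis 14 of 22 rows were positive (median 0.05). Hk1, the hexokinase typical of brain, differed by 0.20 and Hk2 by -0.35 (limma adjusted p = 0.778 and 0.701), neither with overlap between the groups.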

How the data were processed

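RNA was sequenced from 3 siRNLTR12-int and 4 control siRNA libraries, depleted of ribosomal RNA and strand-specific, per the labels' protocols. Salmon, DESeq2 and Rnor_6.0 appear in the submitters' processing notes without versions. The authors deposited normalised counts per gene (a signal, reads over a size factor for each library) and their comparison, with a log2 fold change, its error, a test score and p-values, per the file headers. Every value above 0 (100% in each library) came out as a whole number of reads once divided by the library's smallest step (tolerance 0.01). Each pair of libraries differed by more than sampling noise, for which a median chi-square over genes of 0.455 would stand. The median was 1.39 for siRNLTR12-int replicates 2 and 3 and 3.43 for control replicates 3 and 4. It was 13.5 or more for the other pairs within a group. The fit of the 4 libraries that were not astrocyte-rich rests on the closest pairs, so its p-values measure a narrow spread.

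The main test was limma 3.58.1 with a mean-variance trend, two-sided, on log2 of the normalised count plus 1, over 18225 genes averaging 10 or more. All 7 libraries entered and no covariate was used. edgeR 4.0.16 and DESeq2 1.42.0, run on the recovered reads, called 0 and 141 genes. The fits were tested on simulated data with the same relative spread for every gene and no difference in cell mix. That test does not cover the unequal glia of these libraries. Named genes are the mitochondrial members, members with tissue forms, the 10 nuclear members with the smallest limma p, members called or under the filter, and the 2 smallest p of each pathway list. Members and lists were chosen with earlier results of these data known. Lists are described by count and median, with no test. RefSeq promoters are of GRCr8, and no coordinates of the authors' build are given. Alternatives changed pseudocount, filter, scaling, weights, covariate, tool and libraries.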

Additional observations from a re-analysis of the deposited data

Results flagged for a closer look

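Of 59 values checked in the 4 control libraries, 8 had a library set apart from the rest, measured as the gap to the nearest library over the whole range, and chance alone sets some apart. Control replicate 4 was highest for Mt-nd3 (0.904). Control replicate 1 was highest for Cox6a2 (0.836), for the percent of reads from mitochondrially encoded subunits (0.865) and for the Mt-nd6 share of Mt-nd6 and Mt-nd5 reads (0.833). Control replicate 2 was lowest for the percent of reads from nuclear subunits (0.853) and from nuclear ATP synthase rows (0.895). Control replicate 3 was highest for the Atp5g3 share of c ring reads (0.886) and, from 1 read, for the Cox7b2 share (1). Control replicates 1 and 2 are astrocyte-rich, and the part of that in these values was not tested.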

How the results depend on the processing

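No member passed an adjusted p of 0.05 under any alternative run. The medians, which have no test, turned negative without siRNLTR12-int replicate 1 or control replicate 3, the nuclear one also with array weights (-0.01), and the gap between them also without control replicate 2. With 1 library left out in turn, the median log2 difference ran from -0.04 to 0.11 for mitochondrial and from -0.02 to 0.05 for nuclear members, and their gap from -0.02 to 0.09. The mean mitochondrial percent of reads ran from 8.16 to 9.04 in siRNLTR12-int and from 7.69 to 8.35 in control libraries. With the replicate block the medians were 0.07 and 0.03, the gap 0.04 and 0 members were called. Same-numbered libraries correlated by 0.72, -0.07 and 0.68, and siRNLTR12-int replicate 2 correlated best with control replicate 3 (0.61). Replicate 1 of both groups is astrocyte-rich and replicate 3 of neither is. These correlations therefore cannot show whether the numbers pair the libraries. Over all genes the adjusted calls numbered 0 with limma and edgeR, 141 with DESeq2 and 839 with array weights, and leaving out the astrocyte-rich libraries gave 1415. The cause was not tested. Of 753 other values, 33 moved, among them Atp5g2 and Ndufb7 without siRNLTR12-int replicate 1. Depth limits Ndufa4l2, Cox8b and Cox4i2.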
